A study of Homo sapiens with 6 samples.

Results

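The genes described here are the zinc finger genes of human chromosome 19 whose symbol is ZNF followed by a number, measured in OVCAR3 cells exposed to the CDK12/13 inhibitor THZ531. The rule that selected them used symbol and position alone, though it was set with earlier results of these data known. It took every locus of the deposited table with a ZNF symbol on chromosome 19 (hg38), which gave 254 of 47577 loci. Of these 254, 206 passed a minimum, namely 10 or more in 3 or more of the 6 libraries, and were compared between the groups, while 48 stayed under that minimum and 12 of the 48 were at 0 in all 6 libraries. The table holds a further 275 ZNF loci on other chromosomes, 234 of which passed the same minimum.

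ZNF genes encode DNA-binding proteins built from tandem C2H2 fingers, small zinc-coordinated folds that each read a few bases of DNA. Most of those on chromosome 19 also carry a KRAB domain, which recruits the scaffold protein TRIM28 and, through it, the histone methyltransferase SETDB1 and heterochromatin proteins, and many of these factors silence transposable elements. The genes arose by tandem duplication and lie side by side in arrays, with the fingers usually encoded by a single last exon. CDK12 and CDK13, the kinases inhibited, phosphorylate the C-terminal domain of RNA polymerase II and are known to sustain elongation and to restrain the use of polyadenylation sites inside introns.

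OVCAR3 is an established cell line of high-grade serous ovarian adenocarcinoma. PolyA RNA was sequenced from 3 biological repeats given DMSO, the vehicle, for 6 h and from 3 given THZ531, a covalent inhibitor, at 200 nM for 6 h, so that the results hold for 1 cell line, 1 dose and 1 time. The sample titles, the treatment label and the methods of the study name THZ531, whereas a protocol line of the same labels names the related compound THZ1 at that dose; THZ531 is used here. Each value is a number of reads after division by the size factor of its library, called normalized reads below, and changes are differences of log2(value + 1), a scale that understates the change of low genes.

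Between 53054048 and 70986130 reads were counted on genes per library, with size factors of 1.08 to 1.26 in DMSO and 0.794 to 0.88 in THZ531. CDK12 itself differed by 0.39 on the log2 scale and CDK13 by -0.02, neither of which was called. Of 8 epithelial and serous ovarian markers, all were detected and 1, PAX8, fell, by 3.18 on the log2 scale. Some markers of other cell types were detected, with COL1A1 at a mean of 995.5 in DMSO and CD68, of macrophages, at 404.4; CD3E, of T cells, was at 0 in every library and DCN, of fibroblasts, in every THZ531 library. The summed level of 4 fibroblast markers was 995 to 1086 in DMSO and 2140 to 2412 in THZ531, nearly all of it COL1A1, which rose (log2 fold change 1.14); 4 leukocyte markers summed to 407 to 503 and 406 to 490, and 3 endothelial markers to 162 to 199 and 213 to 299, where VWF rose (0.73). The part of these cells in the values of the ZNF genes was not tested. In bulk RNA, fewer cells expressing a gene and less of its RNA per cell cannot be told apart.

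The ZNF genes of chromosome 19 shared a compact structure in GENCODE v44. The median locus spanned 22960 bases with 4 exons and a transcript of 3882.5 bases, of which 3290 lay in the last exon. A finger pattern was found in 245 translated proteins, with a median of 12 fingers and a range of 1 to 36, and in 239 of the 245 every finger was encoded by the last exon. A pattern for the KRAB A box was found in 207 of the 245. Sequence shared with other genes was limited at the read length of 150 bases: 23 of the 254 transcripts had any 150-base window that also occurs in another gene, and 7 had at least 5% of their windows shared.

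The promoters of these genes also had letters in common, which is why 4 of them are shown. RefSeq windows from 250 bases before to 50 bases after the start (GRCh38.p14) were matched for 215 of the 254 genes. The 6 letters CCGGAA, the core bound by ETS-family factors, occurred on either strand in 120 of the 215 (55.8%), against 17.6% of 27303 windows of all genes, 27.5% of 11594 windows of the other genes tested and 48.9% of 188 windows of tested ZNF genes on other chromosomes. CCAAT was present in 53.5%, against 36.1% for the other genes tested, and the TATA-type TATAAA in 1.86%, against 6.28%. The median ratio of observed to expected CpG was 0.77, against 0.83 for the other genes tested and 0.58 for all windows. These were 4 of 9 motifs and 2 base-composition measures examined, chosen with these shares in view; GGGCGG, the core of a GC box, was as frequent in the chromosome 19 set (67.9%) as among the other genes tested (68.6%). The windows below belong to ZNF546 and ZNF324B, which fell, and to ZNF227 and ZNF529, which rose; capitals mark CCGGAA or its reverse complement TTCCGG, and each is written 5′ to 3′ on the strand of its gene.
ZNF546 (chr19:39996810-39997109, plus strand): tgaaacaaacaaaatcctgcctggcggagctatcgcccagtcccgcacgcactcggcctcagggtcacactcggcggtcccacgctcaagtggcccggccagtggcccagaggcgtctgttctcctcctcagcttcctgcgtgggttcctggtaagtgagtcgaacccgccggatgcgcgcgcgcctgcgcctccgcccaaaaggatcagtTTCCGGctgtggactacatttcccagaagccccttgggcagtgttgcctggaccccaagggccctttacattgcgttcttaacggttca
ZNF324B (chr19:58451372-58451671, plus strand): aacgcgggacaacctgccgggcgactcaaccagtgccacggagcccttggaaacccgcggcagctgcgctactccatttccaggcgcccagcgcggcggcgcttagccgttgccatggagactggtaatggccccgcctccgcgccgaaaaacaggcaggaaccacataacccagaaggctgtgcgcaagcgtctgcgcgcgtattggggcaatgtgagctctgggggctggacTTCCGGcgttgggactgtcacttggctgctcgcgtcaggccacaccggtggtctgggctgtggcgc
ZNF227 (chr19:44212282-44212581, plus strand): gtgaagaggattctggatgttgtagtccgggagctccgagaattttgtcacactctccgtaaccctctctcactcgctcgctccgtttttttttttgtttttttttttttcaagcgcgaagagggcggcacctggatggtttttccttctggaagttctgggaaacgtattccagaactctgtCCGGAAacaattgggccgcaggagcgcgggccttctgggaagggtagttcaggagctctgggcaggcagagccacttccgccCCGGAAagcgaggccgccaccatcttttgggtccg
ZNF529 (chr19:36605208-36605507, minus strand): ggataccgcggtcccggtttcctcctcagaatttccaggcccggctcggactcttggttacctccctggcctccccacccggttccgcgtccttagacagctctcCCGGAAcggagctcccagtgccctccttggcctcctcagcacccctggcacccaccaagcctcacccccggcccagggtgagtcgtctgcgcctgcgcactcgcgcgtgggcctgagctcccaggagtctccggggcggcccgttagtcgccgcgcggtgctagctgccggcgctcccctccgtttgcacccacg
All 4 windows shown hold CCGGAA, and ZNF227 holds 2 copies, so these windows cannot tell how the motif relates to the direction of change. Other genes named below hold no copy, among them ZNF554 and ZNF627, which fell, and ZNF699 and ZNF14, which rose. Over all matched genes past the minimum, CCGGAA was present in 58.6% of the 87 that fell, 45.5% of the 22 that rose and 54.1% of the 74 that were not called. A match of letters is a description of the window and not a binding site.

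After THZ531, 99 of the 206 ZNF genes compared (48.1%) had fallen and 24 (11.7%) had risen, taking as called a gene that differed 1.5-fold or more with an unadjusted p up to 0.05 (limma). Over all 17568 loci compared by the same rule, 23.9% fell and 15.7% rose. The median log2 fold change of the ZNF genes was -0.61, with quartiles of -1.19 and 0.06, whereas that of all loci was -0.01; 149 of the 206 (72.3%) were below 0, against 50.3% of all loci. The values of the 3 DMSO and the 3 THZ531 libraries did not overlap for 165 of the 206 (80.1%), where the figure for all loci was 71.7%. A fall of at least 2-fold was seen for 66 of the 206 and a rise of that size for 9. The p-values measure the spread between these 3 and 3 cultures of 1 line.

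The minimum bears on these counts. Of the 206, 10 reached 10 in every DMSO library but not in every THZ531 library. They include ZNF554, ZNF177, ZNF471 and ZNF837. The reverse held for 1, the joint locus of ZNF540 and ZNF571-AS1. In 4 of the 10 no THZ531 library reached 10, so these could pass only because they were high in DMSO. The folds of all these genes are a description. With a minimum set on the mean of all 6 libraries, the counts were again 99 and 24 of 206. Nearest to the minimum, ZNF681 passed with values of 9.53, 16.7 and 16 in DMSO and 15.1, 0 and 9.1 in THZ531, while ZNF426 did not, with 32.5, 7.42 and 6.38 in DMSO and 0, 0 and 4.55 in THZ531. Of the 206 loci, 4 join several symbols, and without them 97 of 202 fell.

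The share of genes called depended on how the libraries were scaled. Equal library totals, equal upper quartiles and equal RPL34 levels moved the median of all loci from -0.01 to -0.25, 0.11 and -0.50, and that of the ZNF genes from -0.61 to -0.85, -0.49 and -1.10. A scaling shifts all genes by nearly the same amount, so the distance between these medians is fixed and is no check of the direction. The split of calls, 24 rises and 99 falls as deposited, was 7 and 144 with RPL34, 13 and 116 with the same total and 29 and 86 with the upper quartile; over all loci it went from 2751 rises and 4197 falls to 1078 and 7524, 1647 and 5615, and 3612 and 3640.

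**Figure D1:**
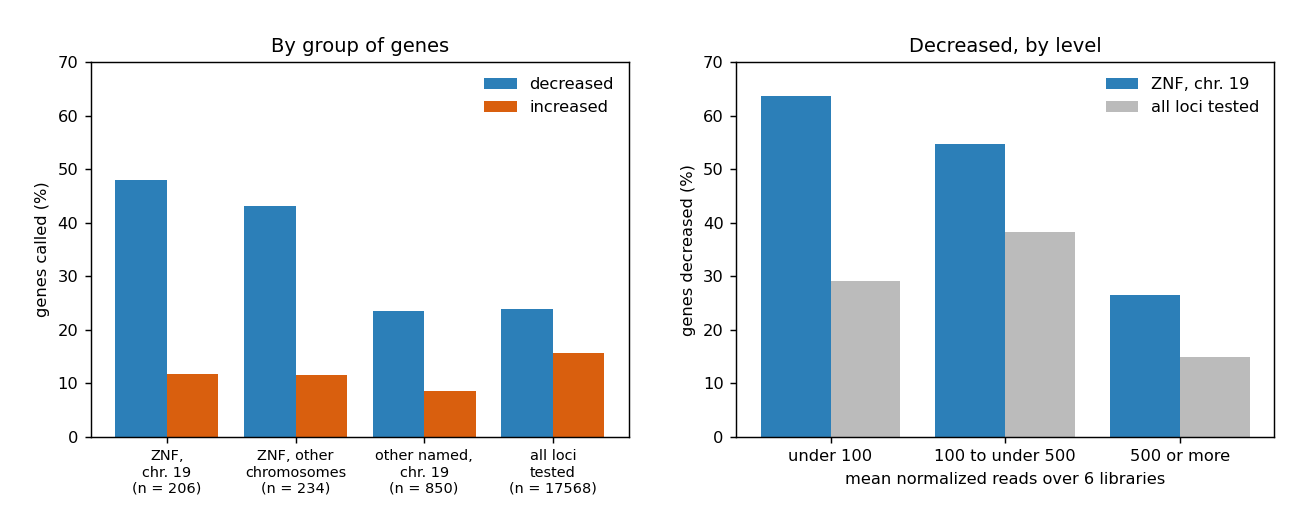
Percent of genes called after THZ531. Left, percent decreased (blue) and increased (orange) among ZNF genes of chromosome 19, ZNF genes of other chromosomes, other named genes of chromosome 19 and all loci tested, with the number tested under each; right, percent decreased by mean normalized reads over 6 libraries, for the chromosome 19 ZNF genes (blue) and all loci (grey). The ZNF bars on the left stand at 48.1% and 43.2% decreased, the other 2 at 23.5% and 23.9%, and on the right the blue bar is the taller one in each level class.

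Figures for other sets of genes stand beside these as a description, and differences between the sets were not tested. On the other chromosomes 101 of 234 ZNF genes fell (43.2%) and 27 rose (11.5%), with a median of -0.46. Of 850 other named genes of chromosome 19, 200 fell (23.5%) and 73 rose (8.59%), and their median was -0.05; over all loci with a symbol, 23.7% fell and 13.3% rose. Among 104 of those genes that lie inside the ZNF arrays, 29 fell (27.9%), 12 rose and the median was -0.11. The few finger genes of chromosome 19 with another name (ZFP, ZIM, ZIK, ZSCAN and ZKSCAN) fell in 3 of 8 cases, with a median of -0.53.

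Within the ZNF set the share that fell was highest among low genes, whereas among all loci it was highest in the middle class. Of 47 ZNF genes with a mean under 100 normalized reads, 30 fell (63.8%, all loci 29.2%), of 95 with a mean from 100 to under 500, 52 fell (54.7%, all loci 38.2%), and of 64 with a mean of 500 or more, 17 fell (26.6%, all loci 15%). The medians in these classes were -1.23, -0.66 and -0.12, against -0.22, -0.27 and 0.12 for all loci. By locus length, 53.8% of the ZNF loci under 15 kb fell, 48.9% of those from 15 to under 30 kb and 42.2% of those of 30 kb or more, against 22.1%, 25.8% and 23.9% of all loci with a symbol in these classes. Across the 206 genes, Spearman's rho of the log2 fold change was 0.14 with locus length, 0.21 with the DMSO level, 0.05 with the number of fingers (204 genes) and -0.04 with the number of AATAAA motifs in introns, where the genes share libraries and the DMSO level enters the fold change itself. Genes with the KRAB A box pattern fell in 85 of 171 cases (49.7%, median -0.63) and those whose protein lacked it in 13 of 33 (39.4%, median -0.17).

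The 10 largest falls among genes with a group mean of at least 100 were those of ZNF554, ZNF546, ZNF66, ZNF324B, ZNF347, ZNF585B, ZNF627, ZNF526, ZNF607 and ZNF784, between 3.92- and 9.19-fold. All but ZNF526 and ZNF784 had the KRAB pattern, the proteins held 6 to 22 fingers, and none of the 10 loci overlapped another named locus. ZNF554 (chr19:2819868-2836735), a KRAB gene of 7 fingers, was at 159.6, 183.7 and 182.7 normalized reads in the 3 DMSO libraries and at 35.3, 9.09 and 18.2 in the THZ531 libraries. Its log2 fold change was -3.20 ± 0.37 (SE), given as a description because not every THZ531 library of ZNF554 reached 10. ZNF546 (chr19:39997060-40021041), with 22 fingers, fell from 219.9, 168 and 185.1 to 27.7, 26.1 and 11.4 (log2 fold change -3.16 ± 0.31, adjusted p = 1.7e-07, limma). ZNF66 (chr19:20776304-20813049) went from 140.5, 131.8 and 170 to 17.6, 31.8 and 12.5 (-2.87 ± 0.32, adjusted p = 7.1e-07). In each of these 3 genes every treated library lay under every control library, and the treated libraries differed among themselves by over 2-fold at these low counts.

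Falls among genes with more reads had smaller standard errors. ZNF526 (chr19:42220295-42228201), a gene of 13 fingers without a KRAB pattern in which recessive variants are known to impair brain development, gave 1135, 1051 and 1041 in DMSO and 243.1, 259.2 and 203.6 in THZ531 (log2 fold change -2.19 ± 0.10, adjusted p = 3.1e-11). ZNF607 gave 274.7, 324.8 and 284.8 against 66.8, 67.1 and 67.1, and ZNF784, a small protein of 6 fingers, gave 318.4, 345.2 and 321.6 against 81.9, 81.8 and 85.3; their log2 fold changes were -2.12 ± 0.16 and -1.97 ± 0.15. Both sets of treated libraries were closely grouped and stood apart from the controls. ZNF347, ZNF627 and ZNF585B fell by 2.25, 2.21 and 2.21 on the log2 scale. Below the level needed to be listed among the 10, ZNF177 and ZNF471 had still larger fitted falls, ZNF177 from 43.7, 35.3 and 44.7 to 3.78, 2.27 and 2.28 and ZNF471 from 42.9, 51 and 63.8 to 5.04, 4.55 and 4.55 (log2 fold changes -3.50 and -3.21). Both passed the minimum through DMSO alone, with no THZ531 library at 10, and they are named here after their values were seen.

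The rises were smaller than the falls. The 10 largest by the same rule were ZNF227, ZNF296, ZNF699, ZNF235, ZNF460, ZNF529, ZNF580, ZNF420, ZNF256 and ZNF14, between 1.85- and 2.35-fold. ZNF529 (chr19:36543613-36605262), a KRAB gene of 9 fingers, rose from 1152, 1217 and 1192 to 2693, 2659 and 2452 normalized reads (log2 fold change 1.13 ± 0.06, adjusted p = 7.1e-11). ZNF580 (chr19:55639940-55643470), a short protein of 3 fingers first studied in endothelial cells, rose from 701.8, 747 and 761.2 to 1562, 1450 and 1426 (1.00 ± 0.07, adjusted p = 2.1e-09). For both genes the groups were separated by several times the spread within them. ZNF227 rose from 115.9, 110.4 and 106.9 to 253.2, 261.4 and 271.9 (1.23 ± 0.14), and ZNF296, a factor known from pluripotent stem cells, from 151.6, 131.8 and 173.1 to 342.6, 351.2 and 343.6 (1.19 ± 0.14). ZNF420, known as an inhibitor of p53 activity, rose from 364.4, 281.2 and 339.1 to 617.1, 688.8 and 595 (0.95 ± 0.11). ZNF14, ZNF256, ZNF420 and ZNF580 were no longer called with RPL34 scaling, where their log2 fold changes were 0.40, 0.41, 0.46 and 0.51.

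**Figure D2:**
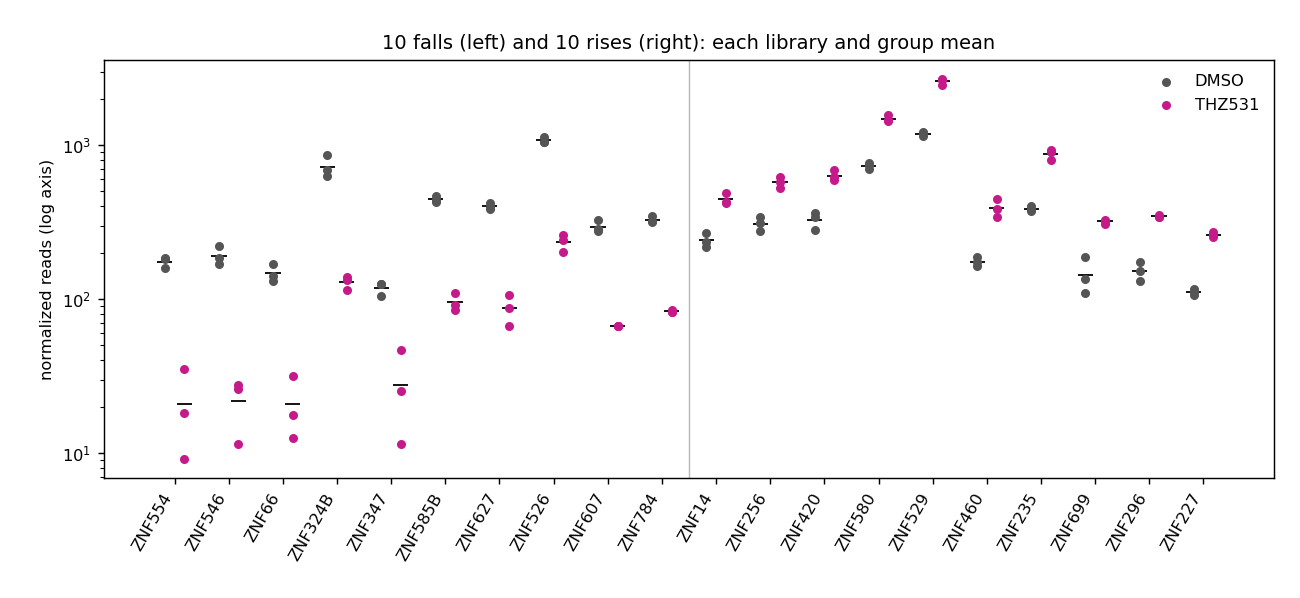
Normalized reads (log axis) of the 10 largest falls and the 10 largest rises among chromosome 19 ZNF genes with a group mean of at least 100. Each point is 1 library, grey for DMSO and magenta for THZ531, and black lines are group means (n = 3); in all 20 genes the groups do not overlap, and the treated points scatter most in the lowest genes, such as ZNF554 (9.09 to 35.3).

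Several rises came from loci that overlap another gene. Among 55 ZNF genes that overlap a named locus, 12 rose (21.8%) and 20 fell (36.4%), while among 151 without such an overlap 12 rose (7.95%) and 79 fell (52.3%); 7 of the 9 rises of at least 2-fold were in the overlapping set. Whether the counting used the strand is not given in the sources used here, so reads shared by overlapping genes on opposite strands may not be separated. ZNF227 and ZNF235 overlap on opposite strands and both rose, ZNF235 from 401.7, 383.2 and 375 to 933.3, 896.9 and 796.4 (1.17 ± 0.09). Other pairs went apart: ZNF529 rose while ZNF382 (chr19:36604817-36634114), on the opposite strand and overlapping only its first bases, fell from a mean of 219.2 ± 24.6 to 65.9 ± 25.5 (SD, n = 3; log2 fold change -1.79), and ZNF580 rose while ZNF581, which overlaps it on the same strand, was at 825.6 ± 29.2 and 689.1 ± 21.3 and was not called. ZNF296 overlaps CLASRP (log2 fold change 0.35, not called) and GEMIN7, which fell (-0.84). ZNF699, ZNF256 and ZNF14 overlap no named locus. The largest fitted rise of all belonged to the joint locus of ZNF540 and the antisense RNA ZNF571-AS1, at 18.3, 20.4 and 7.98 in DMSO and 68, 68.2 and 88.7 in THZ531 (2.29 ± 0.38). This locus reached 10 in every THZ531 library but not in every DMSO library, and its reads cannot be assigned to either gene. It was singled out after its value was seen.

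Of the 5 highest ZNF genes per kb of transcript over both groups, ZNF787 fell, ZNF580 rose and the other 3 were not called; by DMSO alone ZNF580 (637.2 per kb) would stand below ZNF581 (689.7) and ZNF562 (653). ZNF146, a protein consisting of fingers alone, led with 4397 normalized reads per kb in DMSO and 3771 in THZ531. Its libraries gave 14729, 14524 and 14894 reads in DMSO and 12678, 12534 and 12649 in THZ531 (log2 fold change -0.22 ± 0.03, adjusted p = 1.8e-05), groups that did not overlap and yet differed by 1.17-fold, under the fold threshold. ZNF787 followed with 1995 and 1239 per kb and fell, from 3438, 4133 and 4041 to 2380, 2368 and 2462 (-0.68 ± 0.06, adjusted p = 6.2e-08), a call that was lost with upper quartile scaling (-0.57). ZNF331, an imprinted gene, and ZNF875 were at 1286 and 1244 per kb in DMSO and at 1195 and 1286 in THZ531, with no call. With RPL34 scaling ZNF146 and ZNF331 were called, at -0.71 and -0.60.

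Of the 11 genes listed for a known role, 5 fell, 5 were not called and 1 was under the minimum. Among the silencers of transposable elements, ZNF91, which represses SVA and LINE-1 elements, fell from 64.3, 62.2 and 69.4 to 46.6, 26.1 and 15.9 (log2 fold change -1.24 ± 0.36, adjusted p = 0.0056). ZNF417, which with ZNF587 targets endogenous retroviruses, fell from 864.6, 950.2 and 874.5 to 537.8, 599 and 522.2 (-0.70 ± 0.08, adjusted p = 1.4e-06), though with upper quartile scaling it was at -0.58 and not called. The joint locus of ZNF587 and ZNF587B was at 4147, 4397 and 4127 in DMSO and 4084, 4248 and 4401 in THZ531, overlapping groups with a log2 fold change of 0.01 ± 0.04. ZNF93, which also targets LINE-1, was under the minimum, with 1.86 to 6.35 in DMSO and 2.27 to 5.04 in THZ531. ZNF274, which binds the 3′ ends of other ZNF genes and recruits SETDB1 there, fell from 169.9, 157.7 and 150 to 39, 64.8 and 60.3 (-1.56 ± 0.23, adjusted p = 1.4e-05).

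Of the other genes with a known role, ZNF224, a repressor of the aldolase A gene, fell from 539.9, 604.1 and 613.6 to 317.4, 316 and 336.8 (-0.85 ± 0.10), and ZNF568, whose mouse relative represses a placental Igf2 transcript, fell from 100, 78.9 and 114.9 to 49.1, 64.8 and 50.1 (-0.83 ± 0.24, adjusted p = 0.0062). Each of these 2 had groups that did not overlap. ZNF473, a component of histone pre-mRNA processing, was at means of 1336 ± 38.8 and 1240 ± 58.9 (SD, n = 3) and ZNF675, a regulator of TRAF6 signalling, at 561.8 ± 34.9 and 487.5 ± 53.6, and neither was called. ZNF121, a binding partner of MYC, was at 2203, 2144 and 2356 in DMSO and 2892, 2839 and 2856 in THZ531 (0.36 ± 0.05, adjusted p = 9.7e-06), a difference larger than the spread but under the fold threshold.

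Closely related genes could move by different amounts. ZNF585B fell from 443, 424.1 and 469.2 to 109.6, 85.3 and 92.2 (-2.21 ± 0.14), while its paralog ZNF585A was at 826.5, 846.2 and 814.6 and at 646.1, 669.5 and 614.3 (-0.37 ± 0.08, not called), although 5.85% of the 150-base windows of ZNF585B also occur in another gene, most often in ZNF585A. ZNF324B and ZNF324 both fell, ZNF324B from 856.6, 626.3 and 684.6 to 139.8, 114.8 and 132 (-2.47 ± 0.14) and ZNF324 from 1177, 1161 and 1215 to 333.8, 318.3 and 308.3 (-1.88 ± 0.08). Of the windows of ZNF324B, 7.56% also occur in another gene, most often in ZNF324. For ZNF417, 14.5% of the windows occur elsewhere, most often in ZNF587. The differences between paralogs were not tested, and how reads matching several genes were counted is not given in the sources used here.

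Along the chromosome, the ZNF genes formed 16 groups separated by gaps of over 1 Mb. The telomeric array from 55.5 to 58.5 Mb held 59 of the genes, of which 52 passed the minimum, 31 fell (59.6%), 4 rose and the median was -0.75. In the array from 11.5 to 12.6 Mb, 11 of 19 fell (57.9%) and the median was -0.98. The pericentromeric array from 19.7 to 24.1 Mb held 38 genes, 16 of them under the minimum, and 7 of 22 fell (31.8%, median -0.46). In the arrays at 36.2 to 37.8, 43.5 to 45.1 and 51.6 to 53.6 Mb, 10 of 26, 9 of 22 and 15 of 33 fell, with medians of -0.34, -0.53 and -0.44. Position along the chromosome as a whole had a Spearman's rho of -0.04 with the log2 fold change. Other named genes inside the telomeric array fell in 5 of 19 cases and those inside the 43.5 to 45.1 Mb array in 12 of 22.

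Some of the genes that fell stood side by side. The stretches were picked by length after the calls were known, where 48.1% of all tested ZNF genes and 59.6% of those in the telomeric array fell. Whether the stretches are longer than these shares would give was not tested. The longest stretch without interruption among tested ZNF genes was the 9 at the telomeric end, ZNF274, ZNF544, ZNF8, ZNF497, ZNF837, ZNF584, ZNF324B, ZNF324 and ZNF446, starting at position 58183029, with log2 fold changes from -2.76 (ZNF837) to -0.79 (ZNF8). The 6 other named genes tested inside that stretch included 2 that fell and 1 that rose. Next came 6 neighbours in the 11.5 to 12.6 Mb array, ZNF823, ZNF441, ZNF440, ZNF700, ZNF433 and ZNF20, from -1.83 (ZNF700) to -0.98 (ZNF823). The only stretch of 3 or more that rose was that of ZNF317, ZNF699 and ZNF559, at 0.78, 1.18 and 0.70. ZNF317 gave 782, 823.1 and 706.1 in DMSO and 1321, 1292 and 1346 in THZ531, and ZNF559 gave 530.3, 569.7 and 636.7 against 976.1, 853.7 and 995.5, so that every treated library of both stood above every control.

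**Figure D3:**
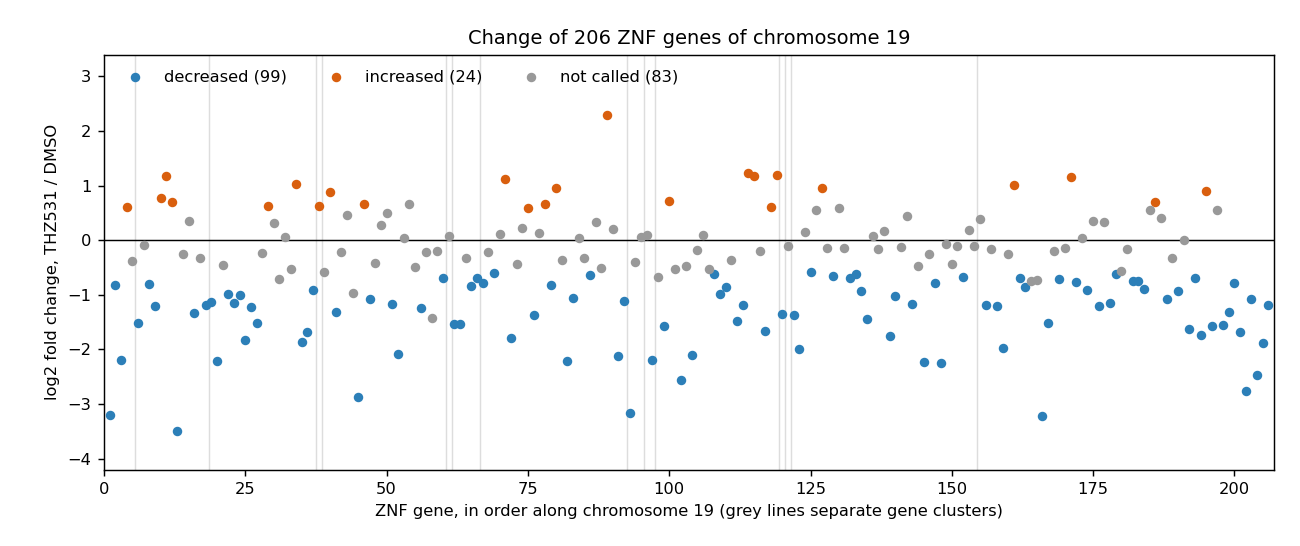
Log2 fold change (THZ531 over DMSO) of the 206 ZNF genes that passed the minimum, in their order along chromosome 19; each point is 1 gene, blue for decreased (99), orange for increased (24) and grey for not called (83), and grey lines separate groups of genes. Falls occur in most groups, the last 9 points at the telomeric end are all blue, and the highest point, at 2.29, is the joint locus of ZNF540 and ZNF571-AS1.

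The co-repressors that KRAB proteins use were examined as a list of 30 genes of that pathway, and 29 passed the minimum. Of these, 4 rose, 6 fell and 19 were not called, with a median log2 fold change of 0.27. Over all loci 15.7% rose, 23.9% fell and the median was -0.01. The shares of the list that rose and fell were thus close to those of all loci, and slightly lower. TRIM28, the scaffold, rose from 14906, 14232 and 14135 to 21519, 22527 and 22058 (0.61 ± 0.04, adjusted p = 3.3e-10), a call that was lost with scaling to the same total (0.37) and to RPL34 (0.12). SETDB1, the H3K9 methyltransferase, was at 990, 1120 and 1128 in DMSO and 1316, 1224 and 1259 in THZ531 and was not called (0.23 ± 0.07). ATF7IP, the partner that stabilizes SETDB1, rose from 3250, 3436 and 3455 to 9711, 9830 and 9561 (1.52 ± 0.04) and was called under each scaling.

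Of 3 subunits of the HUSH silencing complex and its effector MORC2, all but 1 subunit fell. MORC2, a chromatin-compacting ATPase, went from 5979, 6099 and 5900 to 1267, 1148 and 1486 (-2.21 ± 0.07), TASOR from 2687, 2640 and 2742 to 651.1, 744.5 and 645.1 (-1.99 ± 0.07) and MPHOSPH8 from 620.8, 585.5 and 627.1 to 372.8, 384.2 and 372 (-0.70 ± 0.09, not called with the upper quartile), while PPHLN1, the other HUSH subunit, was at 3868 ± 130.5 and 4044 ± 171.1 (SD, n = 3) and was not called. Of the heterochromatin proteins, CBX5 fell (-1.34 ± 0.04), while CBX1 and CBX3 had log2 fold changes of 0.41 and 0.13 and were not called. SUV39H1, a second H3K9 methyltransferase, fell (-0.80 ± 0.15). In the NuRD deacetylase complex MTA1 fell (-0.89 ± 0.04) and MTA2 and RBBP7 rose (0.77 ± 0.04 and 0.62 ± 0.04), but the last 2 were not called with the same total or RPL34. Scaling changed the median of this list from 0.27 to 0.03 (same total), 0.39 (upper quartile) and -0.22 (RPL34), with 1, 8 and 1 rises and 6, 5 and 7 falls, so no direction is given for the list; ATF7IP, CBX5, TASOR, MORC2, MTA1 and SUV39H1 were called in the same direction under all 4 scalings.

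**Figure D4:**
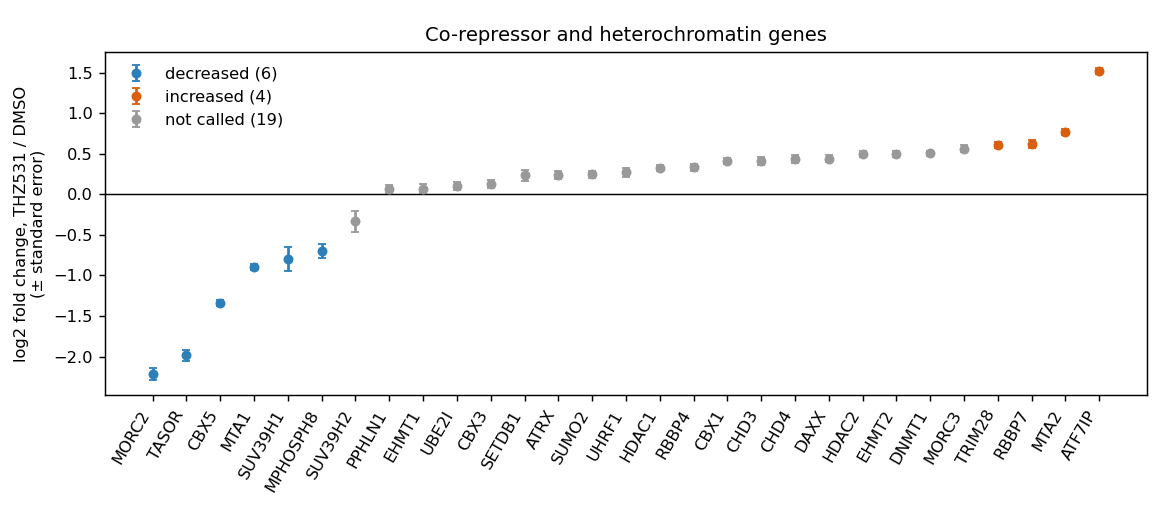
Log2 fold change with its standard error (THZ531 over DMSO) of the 29 co-repressor and heterochromatin genes that passed the minimum, ordered by change; blue points are decreased (6), orange increased (4) and grey not called (19). MORC2 and TASOR stand lowest, at -2.21 and -1.99, and ATF7IP highest, at 1.52.

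The table also lists loci without a symbol that lie inside ZNF genes. There were 60 of them in 47 of the genes that passed the minimum. Of the 60, 11 passed it themselves, of which 4 were called as higher and 1 as lower. Among the 4, those in ZNF430 and ZNF254 reached 10 in every THZ531 library but not in every DMSO library. Among all 2290 loci without a symbol that were tested, 31.1% rose and 25.3% fell. The strand of these loci is not given in the file. Inside ZNF430, a locus at chr19:21034244-21036802 that touches an exon of the gene was at 0, 6.5 and 10.4 in DMSO and 132, 115 and 76.2 in THZ531, and ZNF430 itself rose (0.66). An intronic locus of ZNF254 at chr19:24043216-24045667, 9.81 kb from the start of the gene, was at 0, 1.86 and 6.38 in DMSO and 25.2, 25 and 18.2 in THZ531, while ZNF254 fell (-0.69). Another gene annotated in GENCODE overlaps this locus, so its reads cannot be assigned to ZNF254. The locus at chr19:36215234-36216478, shared by ZNF146 and ZNF565, was at 86.5, 85.4 and 89.4 and at 184, 206 and 167 (1.08), while ZNF565 fell (-0.78) and ZNF146 was not called. In ZNF529, which rose, the inner locus at chr19:36579911-36581856 went the other way, from 117, 142 and 209 to 102, 95.5 and 104 (-0.59). It touches an exon of ZNF529 and also overlaps ZNF529-AS1.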

How the data were processed

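The study sequenced polyA RNA (TruSeq Stranded kit, read length 150) from 3 DMSO and 3 THZ531 cultures. The authors aligned reads on hg38 using STAR (2.7.5a in the submitters' notes; the paper names another version), counted them on FAST DB genes with featureCounts and deposited DESeq2-normalized values, a signal that is never negative: reads divided by a size factor per library, not corrected for length. Whole reads were recovered for 100% of values in every library (tolerance 0.05). Of the columns of per-sample values, 0 were unused.

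The 17568 loci at 10 or more in 3 or more libraries were compared on log2(value + 1) with limma 3.58.1 (trended variance, R 4.3.3) without covariates. A call required a 1.5-fold difference or more and an unadjusted p up to 0.05; adjusted p-values are Benjamini-Hochberg over all loci. edgeR 4.0.16 and DESeq2 1.42.0 on recovered reads were alternatives. Each tool was also run on simulated counts that had the same spread setting for every gene. Because low genes here vary more, that run is no check of their calls. Of called genes with non-overlapping groups and a group mean of at least 100, the 10 largest rises and falls were named, with the 5 highest per kb of transcript (mean of 6 libraries), 11 genes of known role, TRIM28, SETDB1, called co-repressors, CDK12 and CDK13. Members and lists were chosen with earlier results of these data known. Gene structure came from GENCODE v44 on hg38; a KRAB A box is a sequence pattern, and overlaps are by position. Spread is the SD, or the SE of a fold change, over 3 libraries per group.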

Additional observations from a re-analysis of the deposited data

How the results depend on the processing

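The number of ZNF genes that fell was 86 to 116 under every alternative at a 1.5-fold change except RPL34 scaling (144), and 66 at a fold change of at least 2. Rises numbered 13 with scaling to the same total, 7 with RPL34 and 9 at a fold change of at least 2, where 75 genes were called in all. The median log2 fold change was -0.50 with a pseudocount of 10, -0.51 with a minimum of 50, and -0.85, -0.49 and -1.10 with equal totals, upper quartiles and RPL34. Leaving out each library in turn gave 98 to 100 falls, 22 to 24 rises and medians of -0.63 to -0.56. On recovered reads edgeR gave 101 falls and 22 rises and DESeq2 97 and 25. No called gene was called in the opposite direction under any of these alternatives. With the replicate number as a block, 99 fell and 24 rose. The deviations of same-numbered libraries from their group means had correlations of 0.002, 0.019 and -0.039, so no strong shared deviation was seen. Whether same-numbered cultures were handled as pairs cannot be told from these values. Calls were followed over 14 alternatives for 35 genes, namely TRIM28, SETDB1 and the named ZNF genes past the minimum. Of 490 values, 478 kept their call and direction, and 12 crossed the fold threshold. TRIM28 lost its call with scaling to the same total (0.37) and RPL34 (0.12). With RPL34, ZNF14, ZNF256, ZNF420 and ZNF580 lost theirs, while ZNF146, ZNF331, ZNF473 and ZNF675 gained a call. ZNF417 and ZNF787 lost theirs with the upper quartile. These counts leave out CDK12, CDK13 and the called co-repressors other than TRIM28. Among those co-repressors, RPL34 scaling and equal totals each removed the calls of MTA2 and RBBP7. Upper quartile scaling removed that of MPHOSPH8. Genes of few reads, such as ZNF91, carry standard errors of about 0.36 on the log2 scale, and 48 genes under the minimum allow no statement.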
